A study of Mus musculus with 3 samples.

Results

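The 8 genes described here encode calmodulin-dependent protein kinases: the 4 subunits of CaMKII (Camk2a, Camk2b, Camk2d and Camk2g), the nuclear kinase CaMKIV (Camk4), CaMKI (Camk1), and CaMKK1 and CaMKK2 (Camkk1 and Camkk2), the kinases that activate CaMKI and CaMKIV. They were taken by gene symbol, with earlier results of these data known, from 20823 mouse genes with an annotated 5′ UTR, CDS and 3′ UTR. The longest transcript stood for each gene. Ribosome footprints, the mRNA fragments that ribosomes shield from nuclease, had been sequenced from primary cortical neurons grown from mid-gestation CD-1 mouse embryos. The deposited data hold 3 libraries, 1 per treatment: neurons left without drug (WT), neurons given cycloheximide for 2 min (Chx), and neurons given harringtonine for 2 min before a brief cycloheximide exposure (Harr). Each library pooled 3 dishes, per the labels, and the buffers used to rinse and lyse all 3 contained cycloheximide at 100 μg per ml. The labels give no genotype, so that WT here names the untreated state.

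Calcium that enters a neuron binds calmodulin, and calcium-loaded calmodulin opens these kinases by displacing an inhibitory segment from their catalytic domain. CaMKII assembles into a large ring of subunits, and phosphorylation between neighbouring subunits keeps it active after calcium has fallen, a property tied to synaptic plasticity. The α and β subunits are the main neuronal forms, β also binds actin, and δ and γ are made in many tissues. CaMKI and CaMKIV act as single chains in a cascade below the CaMKKs, and CaMKK2 also activates the energy sensor AMPK. Cycloheximide stops ribosomes where they are. Harringtonine stops only those that have just initiated, while ribosomes already elongating run on and leave the CDS.

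Because harringtonine marks start codons, the sequence around the start codon of 6 members is shown, with the start codon in capitals and 12 nt on each side (GENCODE M21 transcripts, mm10). The nucleotides just before it are those in which most of the Camk2b 5′ UTR reads described further on begin.
Camk2b (chr11:6065524-6065550, minus strand): atcgccaccgccATGgccaccacggtg
Camk2d (chr3:126597428-126597454, plus strand): ccagaccccgccATGgcttcgaccacc
Camk2g (chr14:20793951-20793977, minus strand): ccgcccgccagtATGgccaccaccgcc
Camkk1 (chr11:73025566-73025592, plus strand): ctgactggagtgATGgagagtggccca
Camkk2 (chr5:122764230-122764256, minus strand): ggtacacacaccATGtcatcatgtgtc
Camk1 (chr6:113341936-113341962, minus strand): gggcagtgggccATGccaggggcagtg
The base 3 nt before the ATG was a purine in all 6, and a G followed the ATG in Camk2b, Camk2d, Camk2g and Camkk1, but not in Camkk2 or Camk1.

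Only Camkk2, of the 8 genes, had an ATG within the 5′ UTR of its transcript. Among all genes with a 5′ UTR within 10% of the same length, 60.9% had at least 1 ATG for the 189 nt of Camkk2. Over the members this share ran from 41.6% for the 123 nt of Camk2g to 89.1% for the 433 nt of Camk2d. It was 55.4% over genes of any length. Camkk2 had 2, and the stretch that holds them is shown with both in capitals.
Camkk2 upstream ATGs (chr5:122764262-122764287, minus strand): ATGggagcgcccccgcctggctgATG
The first, 43 nt before the start codon, opened a frame of 7 codons that ended at a stop codon inside the 5′ UTR. The second, 20 nt before it, opened a frame of 48 codons that ran past the start codon in another frame than the kinase. A match to these letters is a description of the sequence only. The 5′ UTRs of the members were 64.6% to 82.4% G and C, with Camk2b highest, against a median of 59.8% over 20690 genes.

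The library totals were 35722483 (Chx), 9754412 (Harr) and 30219197 (WT) reads, so that Harr counts carried the widest counting error. There were no replicates, so no difference between treatments has a replicate check or a p-value, and the 95% intervals given cover counting error only. Summed CDS reads of 6 neuronal markers were 3662 to 5103 per 1000000 reads, those of 4 astrocyte markers 78.8 to 213, those of 4 microglial markers 1.44 to 2.80 and those of 4 oligodendrocyte markers 2.15 to 6.52, with Mog and Mobp at 0 in all 3 libraries. The summed levels of all 6 marker lists (those above and those of excitatory and inhibitory neurons) were lowest in Harr per 1000000 reads. Per 1000000 CDS reads, 4 lists were lowest in Harr, while those of neurons (9464 against 8352 in Chx and 9249 in WT) and excitatory neurons (575 against 517 and 465) were highest there. This second scale is used further on for ratios of CDS levels between libraries. The CDS levels of single genes given before that are scaled to all reads of the library. The part of these lists in the levels of the kinases was not tested. In a bulk culture, fewer cells of a type and less RNA per cell cannot be told apart.

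Camk2b carried far more footprints than any other member. Its CDS (chr11:5972218-6065538, minus strand, 1629 nt in 20 coding segments) held 11081 Chx, 1621 Harr and 6418 WT reads. In RPKM, reads per kilobase and per 1000000 reads of the library, its CDS level was 190 in Chx (95% counting interval 187 to 194), 130 in WT (127 to 134) and 102 in Harr (97.1 to 107). By CDS reads per nucleotide it ranked 542 in Chx, 821 in WT and 455 in Harr out of 20823 genes.

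Camk2d followed in every library, with a CDS level of 53.1 RPKM in Chx, 22.8 in Harr and 49.6 in WT. Its CDS (chr3:126597440-126841551, plus strand) held 2845, 333 and 2247 reads. Camk2a (CDS chr18:60925779-60984780, plus strand), the subunit that dominates the mature forebrain, came next on the same scale, at 40.8, 17.5 and 32.7 RPKM in the same order. The intervals of Camk2d and Camk2a did not overlap in any library.

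Camk2g and Camk4 lay next to each other below Camk2a. Camk2g (CDS chr14:20737271-20793965, minus strand) was at 32.0 RPKM in Chx, 13.7 in Harr and 26.4 in WT, and Camk4 (CDS chr18:32939396-33185201, plus strand) was at 29.2, 13.0 and 28.4. Their order turned between Chx and WT, and their intervals overlapped in each library, so these data do not order them. In Harr the interval of Camk2a (15.4 to 19.8) also overlapped that of Camk2g (11.95 to 15.7) by a narrow margin.

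Camk1 and the CaMKKs were the lowest. Camk1 (CDS chr6:113334314-113341950, minus strand) stood at 14.3 RPKM in Chx, 4.83 in Harr and 13.5 in WT. Camkk1 (CDS chr11:73025578-73040293, plus strand) stood at 13.0, 6.21 and 9.70, and Camkk2 (CDS chr5:122734075-122764244, minus strand) at 6.78, 5.22 and 4.27. Camk1 and Camkk1 could be ordered in WT but not in Chx, and the intervals of all 3 overlapped in Harr, where their CDS counts were 53, 92 and 90 reads.

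**Figure D1:**
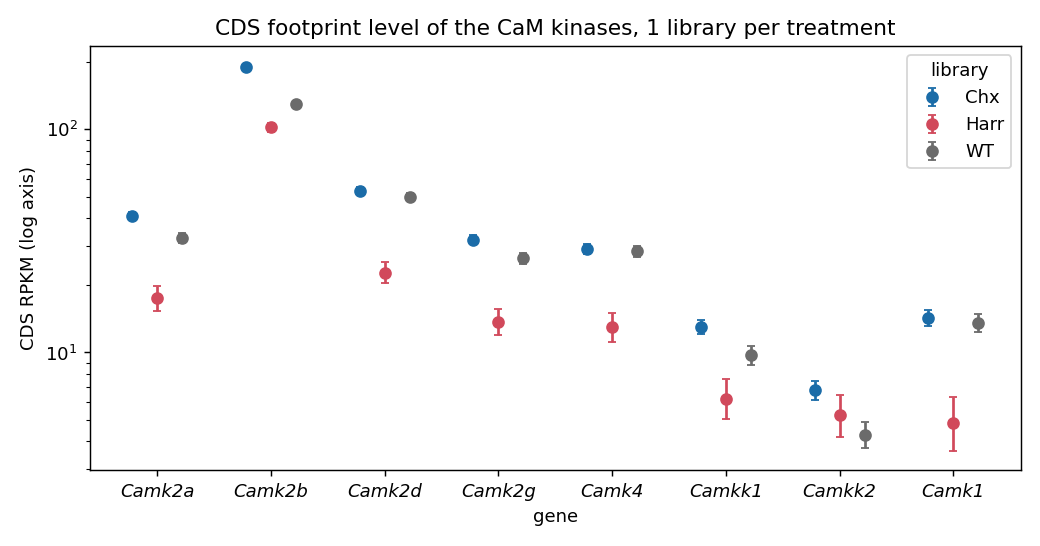
CDS level in RPKM (log axis) of the 8 genes in the Chx, Harr and WT libraries, 1 point per library with its 95% counting interval. Camk2b lies between 102 and 190 RPKM and every other member below 54 RPKM.

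By CDS reads per nucleotide, Camk2b made up 54.5% of the summed density of the 4 CaMKII genes in WT, 60.2% in Chx and 65.4% in Harr. Camk2d made up 14.6% to 20.7%, Camk2a 11.2% to 13.7% and Camk2g 8.80% to 11.1%. The ratio of Camk2a to Camk2b density was 0.251 in WT (95% counting interval 0.237 to 0.266), 0.214 in Chx (0.204 to 0.224) and 0.171 in Harr (0.150 to 0.196). These 3 intervals did not overlap, but the low ratio in Harr rests on the coding segment at the start codon, which held 34.2% of the Camk2b CDS reads in Harr. In an alternative chosen after seeing the data, without that segment in either gene, the ratio was 0.249 in WT (0.234 to 0.264), 0.227 in Chx (0.216 to 0.238) and 0.229 in Harr (0.198 to 0.266). Without it the Harr ratio was 1.01 times that of Chx (0.867 to 1.18) and 0.923 times that of WT (0.787 to 1.08), while the Chx ratio stayed below that of WT, at 0.912 times (0.844 to 0.986), against 0.854 times with all segments. The Camk2b share of the CaMKII density was then 53.9% in WT, 58.5% in Chx and 57.9% in Harr.

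The Harr library held a larger part of every member's reads in the 5′ UTR. In the Harr library, Camk2b had 1266 5′ UTR reads, beside 363 for Chx and 238 for WT, or 42.7%, 3.17% and 3.56% of its reads over the 3 regions. The Harr library held more of them than both other libraries together, although it was the shallowest. The 5′ UTR:CDS odds ratio, as a log2 value, was 4.57 for Harr over Chx (95% counting interval 4.39 to 4.76), above the value of 96.6% of all genes measured.

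Camk2a had 279, 301 and 114 5′ UTR reads in Chx, Harr and WT, or 11.7%, 52.2% and 7.40% of its reads. Camk2d had 327, 399 and 150, or 10.3%, 52.6% and 6.19%. Their log2 odds ratios for Harr over Chx were 3.20 and 3.38. Both subunits thus had more Harr reads that began in the 5′ UTR than in the CDS.

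Camk2g had 50, 62 and 14 5′ UTR reads, and 20.6% of its Harr reads (16.4% to 25.5%, Wilson interval) lay there, the lowest share of the 8 genes. Its log2 odds ratio was 3.40 all the same, beside a share in Chx of 2.67%. The share of Camk4 was 4.72% in Chx and 38.0% in Harr, with 73, 123 and 39 reads and a log2 odds ratio of 3.78. A low share in Harr and a large odds ratio can therefore go together.

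Camkk1 had 38 Chx, 59 Harr and 6 WT reads in the 5′ UTR and a log2 odds ratio of 3.56 for Harr over Chx. Camkk2 had 89, 91 and 15, and Camk1 had 50, 23 and 22. Camkk2 and Camk1 had the smallest log2 odds ratios of the members, 2.28 (1.74 to 2.81) and 2.32 (1.51 to 3.14). For Camkk2 this stood beside the highest Chx share of the 8 genes, 17.2%.

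All 8 members were past the fold for Harr over Chx, that is, their 5′ UTR:CDS ratio was at least 2-fold higher with a counting interval that left out no change. So were 89.4% of 10723 genes. The median log2 odds ratio was 3.39 over the members and 2.46 over those genes. For Harr over WT all 8 were past the fold as well, beside 94.3% of 10314 genes, with medians of 4.28 and 3.23 and a range over the members from 3.17 for Camk1 to 5.46 for Camkk1. Both comparisons share the Harr library.

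**Figure D2:**
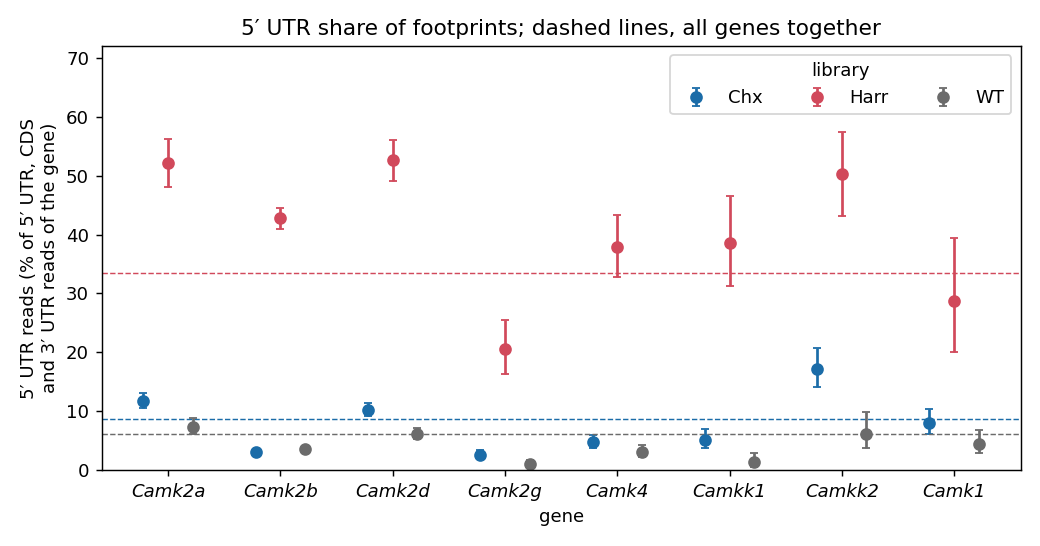
Share of each gene's reads that lay in the 5′ UTR, in percent of its 5′ UTR, CDS and 3′ UTR reads, for the 3 libraries with Wilson 95% intervals. Dashed lines give the share over all genes together (33.5% in Harr, 8.71% in Chx, 6.14% in WT). Every member is highest in Harr, and Camk2g and Camk1 lie below the dashed Harr line.

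Transcripts of the same gene that share a start codon but begin at different points cut the 5′ UTR into windows, which show where its reads began. In Camk2b, 1146 of 1266 Harr reads (90.5%) began in the last 7 nt before the start codon, and so did 239 of 363 Chx reads (65.8%) and 197 of 238 WT reads (82.8%). Those 7 nt are the last lower-case letters before the ATG in the Camk2b sequence above. The rest of the 210 nt held 120 Harr, 124 Chx and 41 WT reads. Against the CDS reads of each library, the log2 odds ratio of the last 7 nt was 5.03 for Harr over Chx (4.82 to 5.25) and 4.52 for Harr over WT (4.29 to 4.75). That of the rest was 2.73 (2.36 to 3.09) and 3.52 (3.01 to 4.04). Both stretches were thus higher in Harr relative to the CDS, the 7 nt at the start codon more than the rest.

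Camk2d had the longest 5′ UTR of the members, up to 489 nt over its transcripts, and its reads were spread along it. Of 409 Harr reads, 155 (37.9%) began in the last 26 nt and 245 (59.9%) in the last 132 nt. The same windows held 40.8% and 56.8% of 336 Chx reads and 24.2% and 56.7% of 157 WT reads. No ATG lay in the 433 nt of the 5′ UTR of the transcript used for Camk2d.

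In Camk2a, 183 of 301 Harr reads (60.8%) began in the last 54 nt, against 195 of 279 in Chx (69.9%) and 94 of 114 in WT (82.5%). In Camk4 the last 60 nt held 93 of 123 Harr reads (75.6%), 36 of 73 Chx reads (49.3%) and 28 of 39 WT reads (71.8%). In Camk2g the last 65 nt held 57 of 62, 46 of 50 and 12 of 14 reads. The share of reads that began farther upstream than such a boundary was 39.2% in Harr for Camk2a (boundary at 54 nt) and 6.64% for Camk2b (44 nt). It was 62.1% for Camk2d (26 nt) and 24.4% for Camk4 (60 nt). Over 783 genes with a boundary of this kind between 20 and 80 nt, the median share in Harr was 33.5% and the quartiles were 7.61% and 69.2%. The members spanned much of the range between these quartiles. The boundary and the length of the 5′ UTR differ between genes, so the shares are not like for like.

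The 5′ UTRs of the other 3 members are split by an intron. In Camkk2, 87 of 89 Chx reads and all 91 Harr and 15 WT reads began in the last 58 nt, the part that holds both upstream ATGs. In Camkk1 the last 41 nt held 21 of 38 Chx, 44 of 59 Harr and all 6 WT reads. In Camk1 the last 32 nt held 43 of 50 Chx reads but 11 of 23 Harr and 13 of 22 WT reads. The upstream exon of Camk1 thus held 12 of its Harr 5′ UTR reads, more than the last 32 nt, on small counts.

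**Figure D3:**
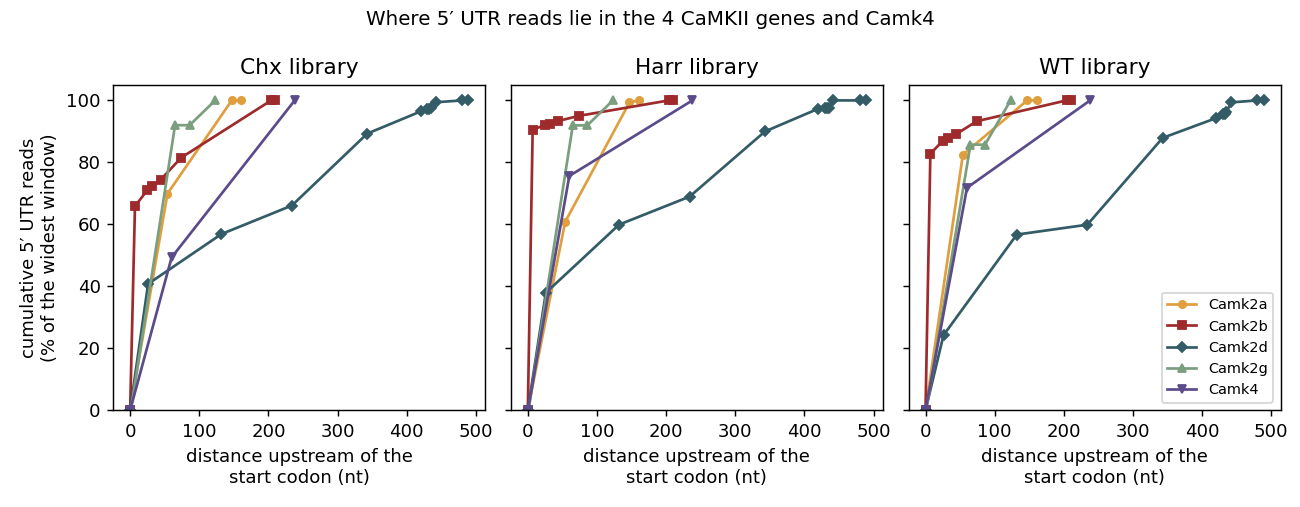
Cumulative 5′ UTR reads, in percent of the widest window, against distance upstream of the start codon in nt, for Camk2a, Camk2b, Camk2d, Camk2g and Camk4, with 1 panel per library and points at the window edges the annotation gives. The Camk2b line reaches 90.5% within 7 nt in Harr, and the Camk2d line reaches at least 99.4% only at 442 nt in each library.

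CDS levels were then compared per 1000000 CDS reads of each library. Camk1 had the lowest log2 ratio for Harr over Chx, -1.01 (-1.41 to -0.60), from 575 reads in Chx and 53 in Harr. Camk2a, Camk2d and Camk2g lay close together at -0.67 each, with intervals from about -0.87 to -0.47, and Camk4 stood at -0.61. Camkk1 was at -0.51 and Camk2b at -0.35 (-0.43 to -0.28).

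Camkk2 was the exception at 0.18 (-0.15 to 0.50), an interval that includes no change. Of the 8 members, 7 were thus lower in Harr beyond counting error, as were 34.1% of 11459 genes, while 31% of genes were higher beyond it. Camk1 was also past the fold, beside 13.7% of 11459 genes that were past it in that direction and 4.63% in the other. That call ended with 5 added to each count (-0.90) and with median-of-ratios size factors (-0.99). The first coding segment, described further on, held 73.3% of the Harr CDS reads of Camkk2 and 34.2% of those of Camk2b. The member median was -0.64 and the gene median -0.05. Scaled to all reads of the library in place of CDS reads, the gene median moved to -0.60 and the member median to -1.19, 6 members were past the fold, and the genes past it were 0.559% higher and 31.2% lower. Camkk2 was then at -0.37.

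For Harr over WT the log2 CDS ratios ran from -0.96 for Camk1 to 0.81 for Camkk2 (0.46 to 1.16). Camk2d and Camk4 were both at -0.61, Camk2g at -0.43, Camk2a at -0.39 and Camkk1 at -0.12, while Camk2b was at 0.16 (0.08 to 0.24). No member was past the fold, beside 14.3% of genes lower and 5.3% higher. The member median was -0.41 and the gene median 0.00. With all reads as the scale these were -0.92 and -0.51, 3 members were past the fold, and 0.681% of genes were higher and 29.0% lower. Camk2b was then at -0.35, so the sign of its value depended on the scale. Its coding segment at the start codon held 34.2% of its Harr CDS reads and 7.98% of those of WT.

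Where in the CDS the Harr reads lay differed among the members. Camk2a had 887 reads up to 600 nt from the start codon and 1207 beyond in Chx, and 65 and 180 in Harr. The log2 change of this near:far ratio was -1.02 for Harr over Chx (-1.44 to -0.59). Camk2g was at -1.48 (-1.98 to -0.98), with 756 and 1062 reads in Chx and 43 and 170 in Harr. Camk2d was at -0.85 (-1.22 to -0.49).

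Camk2b was at -0.03 (-0.18 to 0.12), with 4824 near and 6257 far reads in Chx and 697 and 924 in Harr. Its first coding segment of 65 nt held 555 of its 1621 Harr CDS reads (34.2%), but 7.98% of those of WT and 12.3% of those of Chx. Per nucleotide, the density of that segment over the rest of the CDS was 2.09 in WT, 3.37 in Chx and 12.5 in Harr. In an alternative chosen after seeing these values, which leaves out the segment next to the start codon, Camk2b was at -1.84.

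Camkk2 stood apart at 1.53 (0.79 to 2.26), from 220 near and 208 far reads in Chx and 68 and 22 in Harr. Its first coding segment is 471 nt long and held 66 of its 90 Harr CDS reads (73.3%), but 43.9% of those of WT and 46.3% of those of Chx. The second upstream frame of Camkk2 ends 127 nt past the start codon, inside this segment. Reads in that stretch cannot be assigned to 1 frame from these counts. Without that segment only 2 near reads remained in Harr, and the value was 0.04. Camk1, Camk4 and Camkk1 lay between -0.67 and -0.26 with intervals that include 0.

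Camk2a and Camk2g were past the fold towards fewer near reads, beside 34.2% of 4307 genes of similar CDS length (1000 to 2100 nt), and Camkk2 was past it in the other direction, beside 3.69%. Camk2a was no longer past it with 5 added to each count (-0.96) or with the split at 450 nt (-0.51), and Camk2d joined with the split at 750 nt (-1.16). The member median was -0.47 and the gene median -0.75. For Harr over WT the same 3 members were past the fold, with 33.2% of 4269 genes lower and 4.38% higher, and the medians were -0.78 and -0.74. With the split at 450 nt Camk2a was at -0.81 and 2 members were past it, beside 25.8% of genes lower and 7.45% higher. With the split at 750 nt Camk2d (-1.21) made 4, beside 41.4% lower and 2.77% higher. Without the start codon segment, the member median was -1.15 for Harr over Chx beside -1.22 over 3777 genes, and -1.31 for Harr over WT beside -1.25 over 3734 genes, where 5 members were past the fold beside 49.7% of genes lower and 2.73% higher. The value of Camkk2 for Harr over WT went from 1.45 to -0.77.

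Read by distance, without the start codon segments, the members together had 165 Harr and 2448 Chx reads in the first 300 nt (16 segments), a ratio of raw reads of 0.0674. The ratio was lower at 300 to 600 nt, 0.0426 over 30 segments, and then higher with each step: 0.0809 up to 900 nt, 0.129 up to 1200 nt and 0.215 up to 1800 nt. In genes of similar CDS length it went from 0.0794 and 0.0705 to 0.115, 0.237 and 0.389. Camk2b alone, in 3 to 5 segments per step, went from 0.0578 and 0.0308 to 0.204 in the last step, and the 7 members without it from 0.0786 and 0.0536 to 0.240. The ratio was thus highest in the step farthest from the start, in the members as in genes at large, with lower ratios in the members at each step. The difference from other genes has no replicate check.

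**Figure D4:**
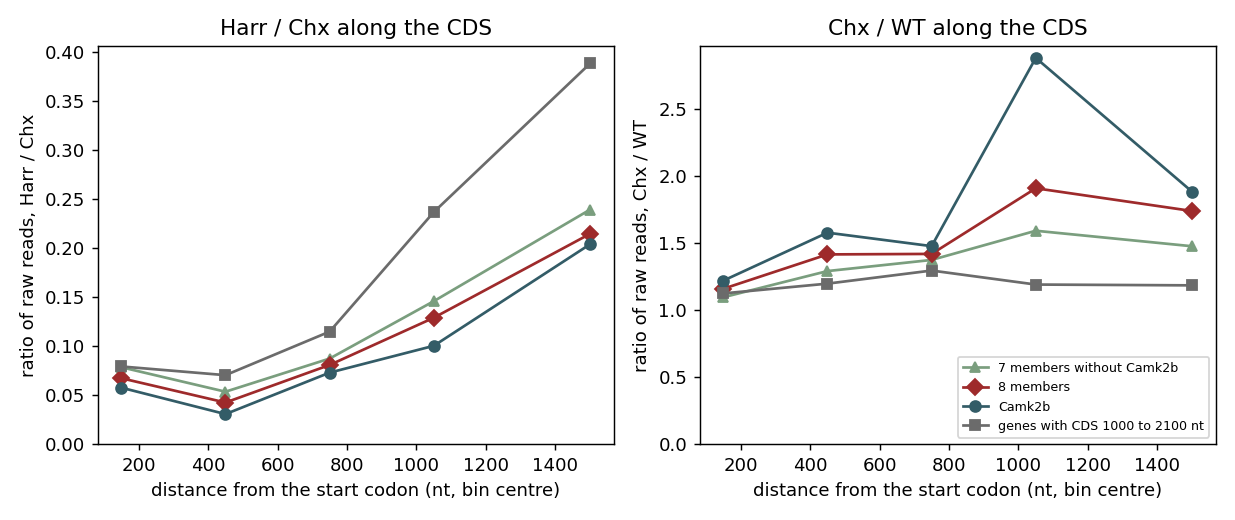
Ratio of raw reads between 2 libraries (left Harr to Chx, right Chx to WT) by distance from the start codon in nt, without the coding segment at the start codon, for the 8 members, Camk2b, the 7 members without Camk2b, and genes with a CDS of 1000 to 2100 nt. The Harr to Chx ratio of the 8 members is lowest at 300 to 600 nt, 0.0426, and reaches 0.215 in the last step. The Chx to WT ratio of Camk2b is highest at 900 to 1200 nt, 2.88.

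The comparison of Chx with WT sets cells given cycloheximide before harvest against cells that met it only in the buffers. Camk2b had the smallest 5′ UTR:CDS odds ratio of the members, a log2 value of -0.18 (-0.42 to 0.06), with 13.1% of genes below it. Its parts went opposite ways against the CDS: the last 7 nt before the start codon were at -0.51 (-0.79 to -0.23) and the rest of the 5′ UTR at 0.80 (0.29 to 1.31). Camkk1 was highest at 1.90 (0.69 to 3.11), with 5′ UTR reads of 38 and 6, followed by Camkk2 at 1.62 (0.81 to 2.43) and Camk2g at 1.28 (0.43 to 2.13). These 3 were past the fold, beside 30.3% of 10430 genes.

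Camk1, Camk2d, Camk2a and Camk4 had log2 odds ratios of 0.84, 0.78, 0.73 and 0.62, each with an interval above 0. In all, 7 members had such an interval, beside 49.6% of genes. The member median was 0.81 and the gene median 0.67. The intervals of Camkk1, Camkk2 and Camk2g overlap those of these 4 genes, so the order among the 7 is not resolved. The 5′ UTR share of Camk2b was 3.17% in Chx and 3.56% in WT.

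CDS levels, per 1000000 CDS reads, were higher in Chx beyond counting error in 5 members, beside 27.8% of genes. Camkk2 had a log2 ratio of 0.63 (0.40 to 0.86), above that of 98.5% of genes, from 428 reads in Chx and 228 in WT. Camk2b was at 0.51 (0.47 to 0.55), above 96.6% of genes, and Camkk1 at 0.39 (0.21 to 0.56), above 92.4%. Camk2a and Camk2g were at 0.28 and 0.24.

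Camk2d, Camk1 and Camk4 were at 0.06, 0.04 and 0.00, with intervals that include 0. None of the 8 was past the fold, beside 0.201% of 11459 genes higher and 0.122% lower. The member median was 0.26 and the gene median 0.03. The log2 change of the near:far ratio ran from -0.37 for Camk2a (-0.57 to -0.18) to 0.27 for Camkk1, and no member was past the fold, beside 2.26% of 4472 genes higher and 1.57% lower. The medians were -0.16 and 0.03.

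By distance, the Chx to WT ratio of Camk2b was 1.22 in the first 300 nt without the start codon segment, 1.58 and 1.48 in the next steps, 2.88 at 900 to 1200 nt and 1.88 beyond. In genes of similar length it stayed between 1.13 and 1.30. The step of 900 to 1200 nt in Camk2b held 816 Chx and 283 WT reads in 5 segments. Among these were optional exons of 75, 72 and 45 nt, described further on. They held 191, 87 and 286 of the Chx reads and 62, 47 and 76 of the WT reads. The part of these exons in the ratio was not tested. The 7 members without Camk2b went from 1.097 to 1.59 at 900 to 1200 nt and 1.48 beyond.

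The 3′ UTRs of the members held few reads, 0.215% of the members' reads in Chx, 0.729% in WT and 3.50% in Harr, against 1.71%, 2.18% and 4.1% over all genes. Camk2b, at 2.53% in Harr, supplied 55.5% of the members' Harr reads, and without it the share was 4.72%. In Harr 4 members lay above the share of all genes: Camk2g at 8.64% (5.96 to 12.4) and Camk4 at 6.79% (4.53 to 10.1) with intervals above it, and Camk2a at 5.37% and Camk1 at 5.0% with intervals that include it. In Chx and WT 0 members did. These are shares over all genes together. How many single genes lay above them was not counted, so the member counts cannot be set against genes at large. Camk2b had 18, 75 and 36 reads in its 3′ UTR in Chx, Harr and WT, of which 14, 54 and 21 began in the first 93 nt after the CDS, out of 2184 nt. Camk2a had 10, 31 and 6, with 1, 23 and 4 in the first 83 nt of 3372. Camk4 had 3, 22 and 10, and all of those in Harr and WT but none in Chx began in the first 143 nt of 1069.

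The 3′ UTR reads of these 3 genes in Harr thus lay mostly in the first 83 to 143 nt after the CDS. Camk2d had 10, 27 and 28 3′ UTR reads and Camk2g 5, 26 and 15, but parts of both 3′ UTRs are coding in other annotated transcripts, so those reads cannot be assigned to one or the other. Camkk1, Camkk2 and Camk1 had at most 4 reads in any library.

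CaMKII genes are known for optional coding exons, most of them in the linker that joins the catalytic domain to the part that assembles the ring. An optional exon is taken here as a coding segment that at least 1 protein-coding transcript spans without using. Its reads per nucleotide are given relative to the constant coding exons of the same gene, without the one at the start codon. In Camk2b, an exon of 75 nt held 191 Chx, 13 Harr and 62 WT reads, a relative density of 0.382, 0.235 and 0.198. An exon of 72 nt held 87, 11 and 47 reads (0.181, 0.207 and 0.157).

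A Camk2b exon of 45 nt held 286, 30 and 76 reads, a relative density of 0.952 in Chx, 0.405 in WT and 0.904 in Harr. The 3 longer ones, of 114, 129 and 129 nt, held at most 11 reads in any library and a relative density of at most 0.0210. The lowest constant exon of Camk2b was at 0.254 in Chx, 0.0822 in Harr and 0.227 in WT, so these 3 lay below every constant exon in all 3 libraries. The exon of 72 nt did so in Chx and WT but not in Harr, and the exon of 75 nt in WT alone. A 33-nt exon of Camk2b held 0 reads in all 3 libraries.

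A pair of exons of 73 nt in Camk2d, used as alternatives, were unequal: one held 233, 8 and 152 reads and the other 11, 0 and 3. In Chx their relative densities were 1.76 and 0.0832. Camk2d exons of 60 and 42 nt held 39, 1 and 15 and 41, 4 and 16 reads. An alternative last coding exon of 67 nt held 88, 24 and 72 reads, a relative density of 0.726, 1.75 and 0.731. In Camk2g, exons of 63, 69 and 114 nt held 6, 0 and 3, 27, 1 and 14, and 40, 8 and 25 reads.

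A linker exon of 33 nt that Camk2d and Camk2g share is shown because its start (aaaaggaag) codes for the run of basic residues known to direct such CaMKII isoforms to the nucleus.
Camk2d (chr3:126802937-126802969, plus strand): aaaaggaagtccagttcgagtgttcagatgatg
Camk2g (chr14:20747819-20747851, minus strand): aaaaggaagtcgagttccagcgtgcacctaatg
The exons have the same base at 26 of 33 places. The Camk2d exon held 0 reads in all 3 libraries, which allows up to 3 reads in each, or a relative density of up to 0.0502 in Chx and 0.0618 in WT. That is below each constant exon of Camk2d in Chx and WT, but the limit covers counting error only, and very short coding segments held fewer reads per nt over all genes. The coding segments of 22 nt in Camkk1 and Camkk2 also held 0 reads in all 3 libraries. Over all genes, among coding segments for which the density of the gene gives at least 10 reads in Chx, 58.7% of those of 15 to 24 nt and 7.83% of those of 30 to 36 nt held 0 reads, beside 0.617% of those of 76 to 150 nt. The median relative density of segments of 30 to 36 nt was 0.376 in Chx and 0.375 in WT, and the part of length in the 33-nt exons was not tested. In Harr the same limit is 0.444, so that an intermediate level was not detectable at this depth. The Camk2g exon held 0 reads in Chx and Harr and 5 in WT, a relative density of 0.179 in WT and of up to 0.0756 in Chx.

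The corresponding 33-nt exon of Camk2a held 0 reads in each library, with an upper limit on its relative density of 0.0643 in Chx, 0.585 in Harr and 0.0965 in WT. Constant exons of Camk2a went down to 0.0518 in Chx. A promoter inside Camk2a is known to make αKAP, a short form without the kinase domain. Its 5′ UTR of up to 293 nt held 2 reads in Chx and 0 in the other libraries, where up to 3 reads are allowed.

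**Figure D5:**
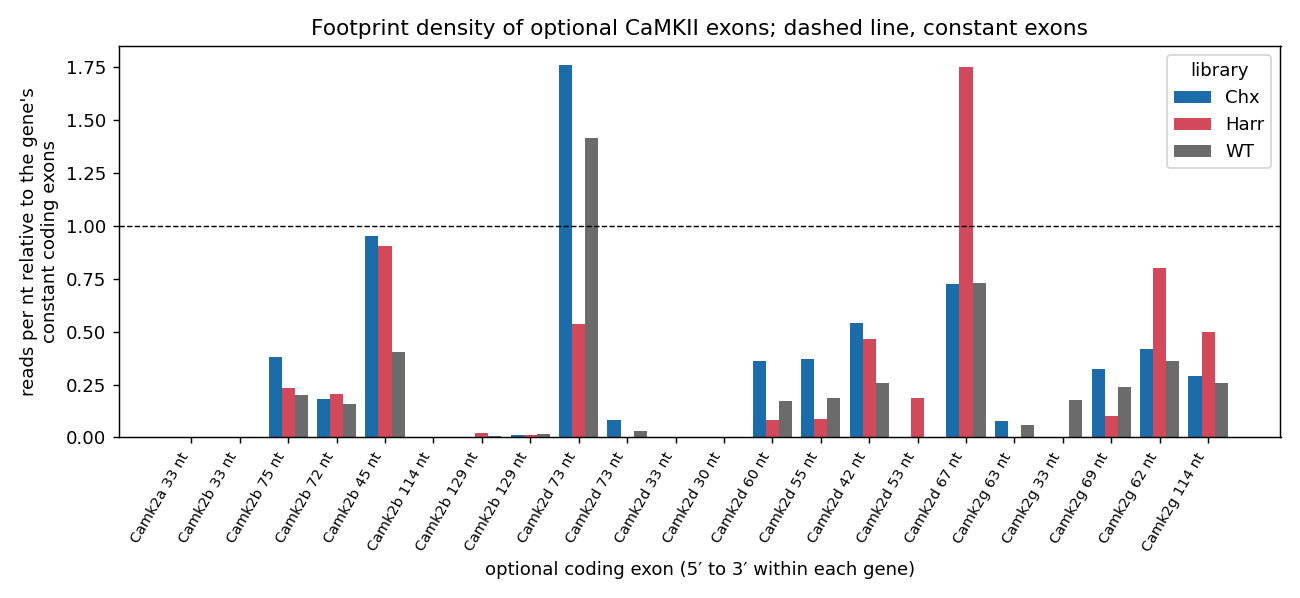
Reads per nt of optional coding exons of the 4 CaMKII genes relative to the constant coding exons of the same gene (dashed line at 1), bars for the Chx, Harr and WT libraries. Overlapping variants of 1 exon are drawn apart, and 2 further Camk2a exons at 0 reads are not drawn. The 33-nt exons are at 0 except for Camk2g in WT (0.179), and the 2 Camk2d exons of 73 nt are at 1.76 and 0.0832 in Chx.

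The other genes of the pathway, 47 in a list of calmodulins, inhibitors, further CaM kinases, phosphatases and targets, had 5′ UTR:CDS values close to those of genes at large in the Harr library. Of 44 with enough reads, 41 were past the fold in the 5′ UTR:CDS ratio for Harr over Chx, beside 89.4% of all genes, with a median log2 odds ratio of 2.52 beside 2.46 over all genes. Calm3, which encodes calmodulin, was highest at 5.15 (5′ UTR reads 1597 in Chx and 4826 in Harr), followed by the kinase Pnck at 4.63. Lowest were the CREB coactivator Crtc1 at 0.26, on 20 and 7 reads, and the Rac exchange factor Tiam1 at 0.64.

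For Harr over WT, 41 of 43 were past it, beside 94.3% of all genes, from 0.99 for the NMDA receptor subunit Grin2b and 1.06 for Tiam1 to 5.29 for the calmodulin-binding Pcp4 and 5.50 for the calcineurin subunit Ppp3r1. In CDS level, 3 of 46 were past the fold higher and 4 lower for Harr over Chx, beside 4.63% and 13.7% of all genes, with a median of -0.07. The anchoring protein Akap5 (1.27) and the myosin kinase Mylk (1.19) were highest, and Pcp4 (-1.30) and Pnck (-1.23) lowest. For Harr over WT the counts were also 3 and 4, beside 5.3% and 14.3% of all genes, with the scaffold Shank3 (1.21) and Mylk (1.11) highest and Pcp4 (-1.998) and Calm2 (-1.35) lowest.

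For Chx over WT, 20 of 44 listed genes were past the fold towards the 5′ UTR, beside 30.3% of all genes, with a median of 0.96 beside 0.67 over all genes. The postsynaptic scaffold Dlg4 was highest at 2.71, with 60 and 7 5′ UTR reads, followed by the calcineurin regulator Rcan1 at 1.69 on 16 and 3 reads. The AMPA receptor subunit Gria1 (-0.71) and Calm2 (-0.58) were lowest. In CDS level none of 46 was past the fold, beside 0.201% of all genes higher and 0.122% lower, with a median of 0.06, from -0.70 for Pcp4 and -0.47 for Akap5 to 0.46 for Camkv, a kinase-like protein without activity, and 0.59 for the calcineurin subunit Ppp3cc.

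The genes most like Camk2b, the member with the most CDS reads, were found by the distance over 4 values, its log2 CDS ratio and log2 5′ UTR:CDS odds ratio for Harr over Chx and for Chx over WT. Among 2843 genes with enough reads in each library, Eif3g, a subunit of initiation factor eIF3, was nearest at 0.632. Dpysl5, a neuronal protein of the collapsin response family, followed at 0.674 and Serpini1, a neuronal protease inhibitor, at 0.717, against a median distance of 2.55. These 4 values set the choice, so closeness in them is no separate result. The log2 odds ratios of the 3 genes for Harr over Chx were 4.58, 4.08 and 4.41, beside 4.57 for Camk2b. Their CDS ratios for Chx over WT, 0.07, 0.23 and -0.14, were below the 0.51 of Camk2b.

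Exact 25-nt stretches within each region of the members were looked up in the transcripts of other genes. No such stretch wholly inside their 5′ UTRs occurs in a transcript of any other gene. Stretches that cross from the 5′ UTR into the CDS were not looked up. Reads of at least 25 nt that begin just before the start codon, as most Camk2b 5′ UTR reads do, cover such stretches. In the CDS, 15 of 1413 such stretches of Camk2a, 14 of 1605 of Camk2b, 13 of 1566 of Camk2g and 3 of 1101 of Camk1 do, and none of Camk2d, Camk4, Camkk1 or Camkk2. In the 3′ UTRs the largest number was 104 of 3348, in Camk2a.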

How the data were processed

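Members and lists were chosen with earlier results of these data known. The authors deposited, per the file headers, Plastid counts of reads per exon segment of each 5′ UTR, CDS and 3′ UTR (whole, unnormalized, 25 to 100 nt long, placed by their 5′ end with offset 0, mm10, rRNA and duplicates removed). The deposited coverage signal (counts per nucleotide) and RPKM were not used. With placement at the 5′ end, reads of ribosomes at or just past the start codon can be counted in the 5′ UTR. The distance from that end to the codon being read was not measured.

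Counts were summed per transcript, and 99.4% of 142446 identifiers matched GENCODE M21 without version. The longest transcript of each gene was used. Odds ratios and ratios had 0.5 added to each count. Genes entered with at least 10 reads per region in the pair (5′ UTR:CDS, near:far) or 100 CDS reads. Past the fold means a log2 value of at least 1 in size with a 95% counting interval without 0. There was 1 library per treatment, so no test was made. Shares carry Wilson intervals, levels exact Poisson intervals, and the floor is 3 counts (per 1000000 reads 0.0840 in Chx, 0.308 in Harr, 0.0993 in WT). Named genes were the members, and for the listed pathway the 2 highest and 2 lowest with at least 200 CDS reads. Sample descriptions naming fractions of another experiment were not used. Python 3.11.15, pandas 2.3.3 and scipy 1.17.1 were used, and the functions were tested on simulated data.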

Additional observations from a re-analysis of the deposited data

How the results depend on the processing

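Of 315 values of single members under the alternatives, 271 moved by less than their counting interval and 44 by more. In 15 the sign changed, and 1 of these was past the fold before. Scaled to all reads of the library, the median log2 CDS ratio was -1.19 for Harr over Chx, with 6 members past the fold (beside 31.2% of genes lower and 0.559% higher). For Harr over WT it was -0.92, with 3 (beside 29.0% lower and 0.681% higher). In CDS level for Harr over Chx, 0 members were past the fold with 5 added to each count (beside 5.67% of genes higher and 10.4% lower) or with median-of-ratios size factors (5.09% and 13.2%). With the transcript that held the most CDS reads, which differed in 3 members, the ratio of Camk2a to Camk2b density was 0.307 in WT, 0.263 in Chx and 0.210 in Harr, and without the coding segment at the start codon it was 0.227 in Chx and 0.229 in Harr. Without the 5′ UTR segment at the start codon, 5 members have no 5′ UTR left and Camkk2 has 2 reads in all, so Camkk1 (0 reads in WT, so its fitted values over WT are no bound) and Camk1 remain: 2 were past the fold for Harr over Chx (beside 86.8% of genes), 2 for Harr over WT (median 5.36, beside 92.1%) and 1 for Chx over WT (median 1.90, beside 29.2%). With the split at 450 nt the median near:far change was -0.22 for Harr over WT and -0.11 for Harr over Chx, where Camk2b was at 0.57. Without the coding segment at the start codon, an alternative chosen after seeing the data, the median was -1.15 for Harr over Chx and -1.31 for Harr over WT, with 5 members past the fold (beside 49.7% of genes lower and 2.73% higher), and Camkk2 went to -0.77 for Harr over WT. The start codon segment holds the reads removed there, and the causes of the other shifts were not tested. No minimum of reads changed no member's value. No paired analysis was possible because each treatment has 1 library. The depth of Harr limits Camk1, Camkk1 and Camkk2 most.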
